A study of Drosophila melanogaster with 6 samples.

Results

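The CYP4 clan is one of the main branches of the insect cytochrome P450 enzymes, and its transcripts were followed here in fruit fly heads. Members were all probe sets annotated to a single gene whose symbol begins with Cyp4, Cyp311, Cyp312, Cyp313, Cyp316 or Cyp318 directly before a lower-case letter, apart from Cyp4d21, with no condition on their level. This gave 32 probe sets of 31 genes, among 13966 probe sets on the array that are not controls and 10844 genes with a probe set of their own. Cyp318a1 had 2 probe sets and every other gene had 1.

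P450 enzymes are heme proteins that insert an oxygen atom into their substrates and, in the endoplasmic reticulum, take electrons from a reductase and in part from cytochrome b5. Mammalian CYP4 enzymes are known for hydroxylating the far end of fatty acid chains. In insects the clan has spread into many subfamilies, and some of its members make cuticular hydrocarbons or help to break down odorants and insecticides. Many single members still have no known substrate.

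Messenger RNA of heads was measured on 6 Affymetrix DrosGenome1 arrays, 3 for each of 2 groups. The wild type flies were of strain CS by the labels of replicates 1 and 3, while that of replicate 2 names no strain. The tim-MJD flies carried Tim-gal4, a driver built on the timeless promoter, a clock gene, and a UAS transgene for MJD, the Machado-Joseph disease protein, with a polyglutamine length of 78 by the labels of replicates 1 and 2 and no stated length for replicate 3. Flies of both groups were collected at an age of 2 to 4 days, 16 hours into the light-dark cycle (ZT16), after 3 days of such cycles. These samples hold neither flies with only the driver nor flies with only the transgene, so driver, transgene and strain background cannot be told apart. The sources used here give neither the sex nor the number of animals per array. The labels do not say that replicates were separate fly collections, so p-values measure the spread between these samples, which may be technical.

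Levels are given as log2 of the deposited intensity plus 16 after quantile normalization between arrays. They are not comparable between probe sets, since probes differ in brightness. The median deposited intensity of an array lay between 26.2 and 31.5. The highest of 23 negative control probe sets lay between 5.59 and 5.69 on the normalized scale, and a probe set was called detected on an array where it exceeded that control. All wild type arrays were scanned on another day than all tim-MJD arrays, and effects of group and of scan day cannot be told apart. Wild type 2 had the largest difference between 3' and 5' control probe sets for eIF-4a (9.63 log2 units, against 2.57 to 3.71 on the others), and the log2 signal of the 18S ribosomal RNA control was 16.7 to 17.4 on 4 arrays but 12.7 on wild type 1 and 12.0 on wild type 2. The 18S signal was low on wild type arrays only, so a fit with it as a covariate cannot fully separate it from group. All 3 measured photoreceptor markers, of 9 listed to check the head label, were detected on every array.

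Of the 32 probe sets, 10 were detected on all 6 arrays, 7 on some arrays and 15 on none. The share detected on all arrays was 31.2%, against 36.3% of all probe sets on the array, and the share detected on none was 46.9%, against 49.1%. Both CYP4G probe sets, those of Cyp4g1 and Cyp4g15, were detected throughout. So were 3 of 5 in the CYP4D subfamily (Cyp4d2, Cyp4d8 and Cyp4d20), and single members elsewhere, namely Cyp4e2, Cyp4p1, Cyp4ac2, Cyp4aa1 and, of 6 CYP313 probe sets, Cyp313a1. The 15 probe sets detected on no array read between 4.55 and 5.63. They belong to Cyp4p3, Cyp4ac3, Cyp4d1, Cyp4d14, Cyp4ae1, Cyp4c3, Cyp4s3, Cyp313a3, Cyp313a4, Cyp313a5, Cyp313b1, Cyp312a1, Cyp316a1 and Cyp318a1, the last with both of its probe sets. Their group means differed by at most 0.15, and a difference between the groups was not detectable for them.

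**Figure D1:**
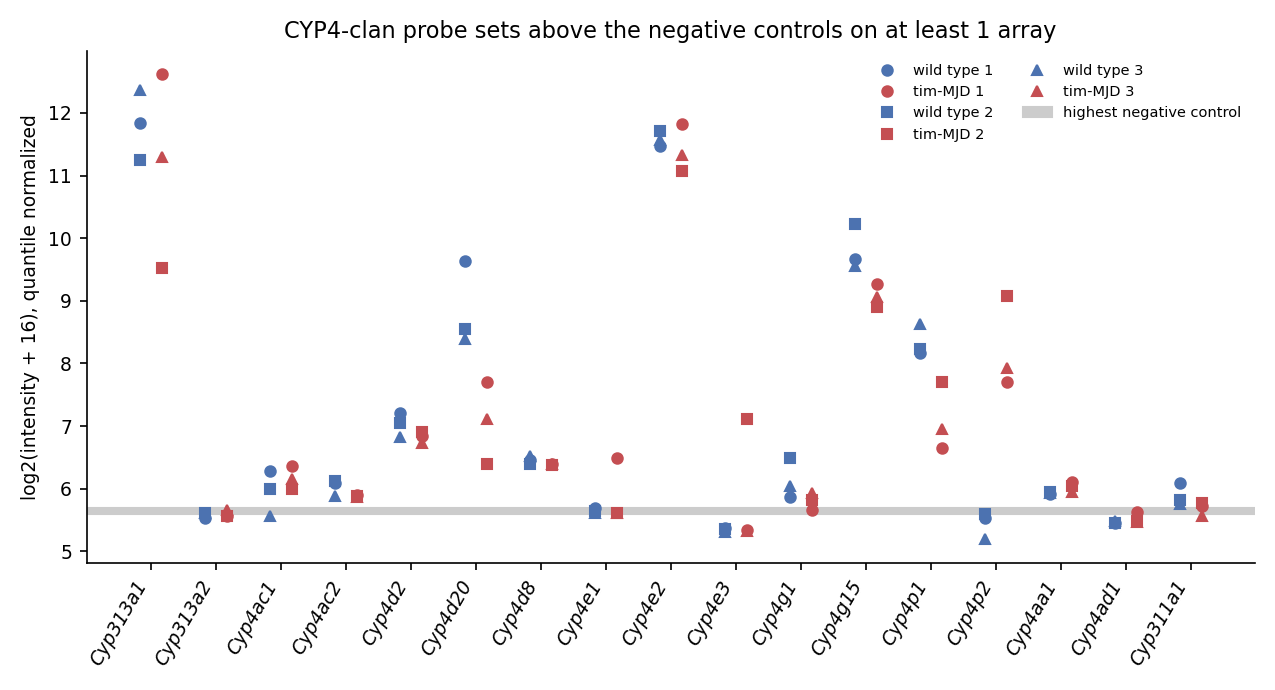
Level of each of the 17 CYP4-clan probe sets detected on at least 1 array, as log2 of intensity plus 16 after quantile normalization (vertical axis), with 1 point per array. Blue points are wild type, red points tim-MJD, marker shapes give the replicate number, and the grey band spans the highest negative control over the arrays. Cyp4p2 lies in or below the band on the 3 wild type arrays and at 7.71 to 9.07 on the tim-MJD arrays, and Cyp4p1, Cyp4d20 and Cyp4g15 lie lower on every tim-MJD array than on any wild type array.

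The comparison of the 2 groups asks which clan members differ between tim-MJD and wild type heads. Cyp4p2 was higher in tim-MJD heads and was the only member past the threshold. Its neighbour Cyp4p1, as well as Cyp4d20 and Cyp4g15, read lower on every tim-MJD array than on any wild type array, but did not pass. The other members differed by at most 0.67 log2 units in either direction. After removal of the dimmest 40% of probe sets, 23 member probe sets were tested by limma, and a gene was called at a Benjamini-Hochberg adjusted p below 0.05 over all 8379 probe sets tested. In this test 1 member was higher and 0 were lower, and 4 had an unadjusted p under 0.05, 1 higher and 3 lower, against 15.6% of all probe sets tested, which is also the background for the unadjusted counts given further on. Over all probe sets tested 2.48% were called, 1.54% higher and 0.943% lower, or 129 and 79 probe sets (123 and 144 with the values as deposited). The 2 groups did not overlap for 4 of the 23 tested members, against 21.9% of all probe sets tested.

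The median difference of the 23 tested members was 0.0038, and that of all probe sets tested was -0.0026. Of these 23 members, 6 were detected on no array. The median is the value of Cyp312a1, which is among those 6, so it does not describe the detected members. Of the 10 members detected on all arrays, 9 had a lower mean in tim-MJD, the exception being Cyp4aa1, and their median difference was -0.26. The limma intervals of Cyp4p1, Cyp4d20 and Cyp4g15 were wholly negative. Those of Cyp313a1, Cyp4ac2, Cyp4d2, Cyp4d8, Cyp4e2 and Cyp4g1 reached from negative to positive values. The difference of Cyp313a1 was 0.133 without tim-MJD 2, and those of Cyp4ac2 and Cyp4d2 were 0.0139 and 0.0148 with the 18S covariate. Cyp4p2, the only member called, is not among these 10, as no wild type array detected it. Among the 5075 tested probe sets detected on all arrays, 49.8% were lower, with a median difference of 0.00082. In RNA from whole heads, fewer cells of a type and less RNA per cell cannot be told apart. A probe set may also take up transcripts of closely related P450 genes, so its reading need not be of its own gene alone.

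**Figure D2:**
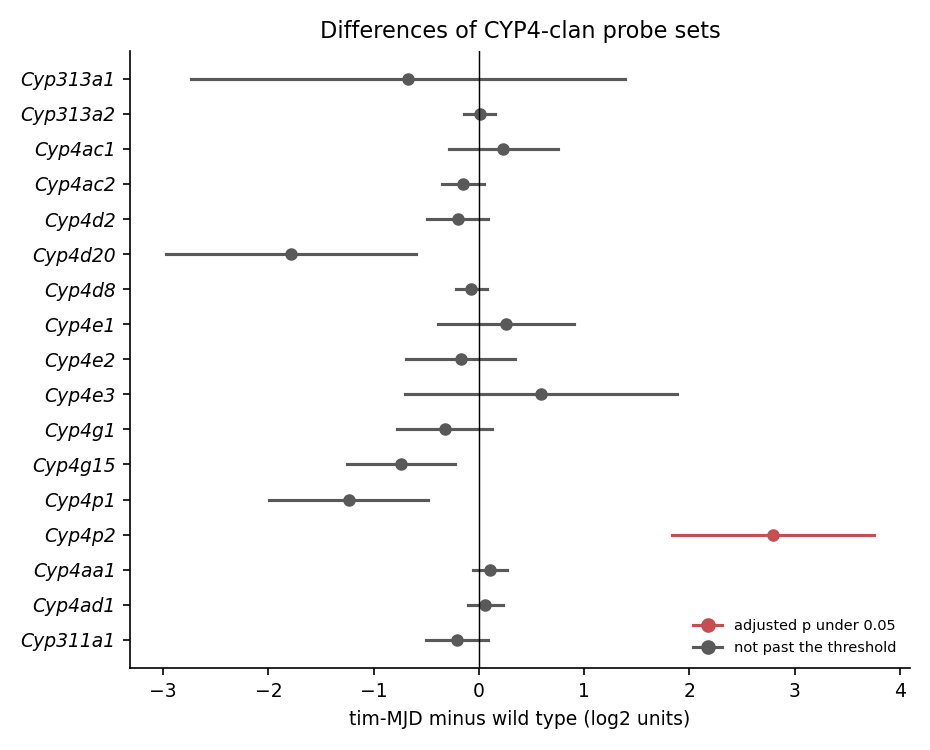
Difference between tim-MJD and wild type means in log2 units (horizontal axis) for the 17 CYP4-clan probe sets detected on at least 1 array. Points are the differences and bars the 95% intervals of the limma fit, 3 arrays per group, in red where the adjusted p was below 0.05. Only the bar of Cyp4p2 (2.79, interval 1.83 to 3.76) is red, and the bars of Cyp4p1, Cyp4d20 and Cyp4g15 lie wholly below 0.

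In the CYP4P subfamily Cyp4p2 rose, Cyp4p1 did not pass the test and Cyp4p3 was not detected. Its 3 genes, Cyp4p2, Cyp4p1 and Cyp4p3, stand next to each other with no other protein-coding gene between them in the RefSeq gene table (Release 6). Cyp4p2 (probe set 152833_at) read 5.54, 5.60 and 5.19 on wild type 1, 2 and 3 and 7.71, 9.07 and 7.93 on tim-MJD 1, 2 and 3. It was detected on no wild type array and on all 3 tim-MJD arrays, with the highest reading on tim-MJD 2. Its mean went from 5.44 ± 0.22 to 8.24 ± 0.73 (SD, n = 3 per group), a limma difference of 2.79 ± 0.38 (SE, adjusted p = 0.0316). The wild type readings lay at control level. With them raised to the highest negative control where they lay below it, the difference of means was 2.63 log2 units. This is an estimate without an error and not a lower limit, as the interval of the limma difference was 1.83 to 3.76.

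The rise of Cyp4p2 kept its direction under each of 22 other settings, but its call was lost under 12 of them. Left out singly, wild type 1, 2 and 3 and tim-MJD 3 each took the call away (limma adjusted p of 0.102, 0.0908, 0.0843 and 0.0809), with differences of 2.79, 2.83, 2.70 and 3.02. Within fluidics modules 1 and 2, which each washed 1 array of each group, tim-MJD lay 2.11 and 3.88 higher. A fit that took the module as a block gave 2.99 (adjusted p = 0.366). Wild type 1 and tim-MJD 3 were each alone in their module. The fit therefore compared only the arrays of modules 1 and 2 and had little power.

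Cyp4p1 (143782_at) read 8.17, 8.23 and 8.63 in wild type and 6.65, 7.70 and 6.96 in tim-MJD. All tim-MJD arrays lay below all wild type arrays, with tim-MJD 2 the closest to them. The means were 8.34 ± 0.25 and 7.10 ± 0.54 (SD, n = 3), a difference of -1.24 ± 0.30 (SE) with a 95% interval of -1.99 to -0.48, which did not pass in limma (adjusted p = 0.115). Without tim-MJD 2 the difference was -1.54 and passed (adjusted p = 0.0437). Within module 1 the difference was -1.58, within module 2 it was -0.92, and a fit with modules as blocks gave -1.25. Cyp4p3 was detected on no array and read 5.22 to 5.40.

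**Figure D3:**
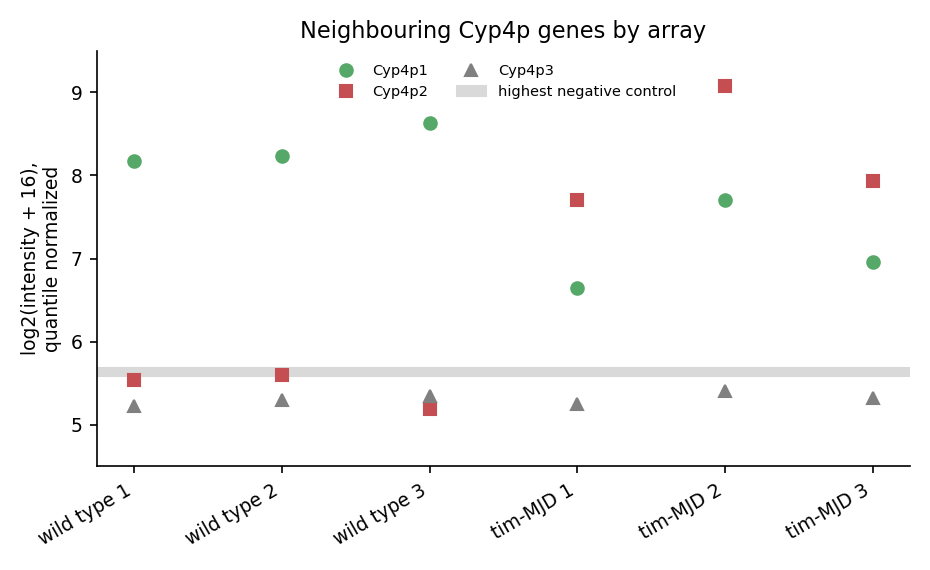
Levels of the neighbouring genes Cyp4p1, Cyp4p2 and Cyp4p3 on each of the 6 arrays (horizontal axis), as log2 of intensity plus 16 after quantile normalization (vertical axis), with 1 point per gene and array. The grey band spans the highest negative control. From wild type to tim-MJD the points of Cyp4p1 move down and those of Cyp4p2 move up, both genes have their highest tim-MJD reading on tim-MJD 2, and Cyp4p3 stays under the band.

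In the CYP4D subfamily Cyp4d20 had the largest difference. Cyp4d20 (148049_at) read 9.64, 8.55 and 8.39 in wild type and 7.71, 6.40 and 7.11 in tim-MJD. The groups did not overlap, and both were spread widely, with wild type 1 the highest and tim-MJD 2 the lowest. The means were 8.86 ± 0.68 and 7.07 ± 0.66 (SD, n = 3), a limma difference of -1.79 ± 0.47 (SE, 95% interval -2.98 to -0.60, adjusted p = 0.140). With any 1 array left out it stayed between -2.10 and -1.38 and did not pass. Within modules 1 and 2 the difference was -0.84 and -2.00.

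The other detected CYP4D genes differed little. Cyp4d2 read 7.21, 7.06 and 6.83 in wild type and 6.85, 6.91 and 6.74 in tim-MJD. The groups overlapped, and the difference was -0.20 with an interval of -0.49 to 0.09. With the 18S signal as a covariate it was 0.01. Cyp4d8 lay between 6.38 and 6.53 on all 6 arrays, and its difference of -0.07 had an interval of -0.22 to 0.08. Cyp4d1 and Cyp4d14 were detected on no array.

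The CYP4G subfamily is the conserved insect branch of the clan that includes the enzyme for the last step of cuticular hydrocarbon synthesis. That enzyme is Cyp4g1, made in oenocytes, and Cyp4g15 is known from the nervous system. Cyp4g15 (152658_at) read 9.67, 10.22 and 9.56 in wild type and 9.26, 8.91 and 9.07 in tim-MJD. All tim-MJD arrays lay below all wild type arrays, of which wild type 2 was the highest. The means were 9.82 ± 0.36 and 9.08 ± 0.18 (SD, n = 3), and the difference of -0.74 ± 0.20 (SE, interval -1.25 to -0.22) did not pass in limma (adjusted p = 0.157). It was -0.52 without wild type 2, -0.41 with the 18S signal as a covariate, and -0.96 and -0.65 within modules 1 and 2.

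Glial markers were read beside Cyp4g15. Of 8 listed genes 7 were measured and tested, and limma called 0 of them (4 had an unadjusted p under 0.05), while 6 were lower in tim-MJD, with a median difference of -0.23. None of the 7 was below the controls on all arrays, and their summed deposited intensity lay between 7786 and 19817 in wild type, highest on wild type 2, and between 3634 and 6364 in tim-MJD. Gs2, the glial glutamine synthetase, made up 90.0% to 97.7% of that sum, and not every other marker was highest on wild type 2. Limma called 0 of 4 tested neuronal markers (2 with an unadjusted p below 0.05). Named after their values were seen, nSyb and Appl differed by 1.63 and 2.17, and elav and brp by 0.04 and 0.07. The summed intensity of neuronal markers was 433 to 548 in wild type and 814 to 1722 in tim-MJD, and para was detected on no array. The part of these cell types in the Cyp4g15 difference was not tested.

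Cyp4g1 (152015_at) read only slightly above the controls. It was 5.87, 6.49 and 6.04 in wild type and 5.67, 5.82 and 5.93 in tim-MJD, with wild type 2 the highest, and the groups overlapped. The difference was -0.33 with an interval of -0.78 to 0.12 and an adjusted p of 0.485 in limma. Without wild type 2 it was -0.15, and with the 3' to 5' signal as a covariate -0.09. FarO, eloF, Fad2 and FASN2, which act before it in hydrocarbon synthesis of oenocytes, were detected on no array, while 7 of the 12 measured genes of that list were detected on all arrays.

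In the CYP4E subfamily the groups overlapped for Cyp4e2, while Cyp4e1 and Cyp4e3 each stood out on 1 tim-MJD array. Cyp4e2 (154078_at) read 11.47, 11.71 and 11.56 in wild type and 11.83, 11.08 and 11.32 in tim-MJD. The tim-MJD arrays lay on both sides of the wild type arrays, and the difference was -0.17 with an interval of -0.69 to 0.34. It was -0.38 without tim-MJD 1, -0.0079 without tim-MJD 2 and -0.43 with median centring. Cyp4e1 lay between 5.61 and 5.70 on 5 arrays and at 6.49 on tim-MJD 1. Its difference of 0.26 became -0.04 without that array. Cyp4e3 lay between 5.31 and 5.37 on 5 arrays, below the controls, and at 7.12 on tim-MJD 2. Its difference of 0.59 became -0.0073 without that array. Cyp4ad1, the neighbour of Cyp4e2 and Cyp4e1 in the gene table, was detected on tim-MJD 1 alone, at 5.63, just above the controls, and was 5.45 to 5.49 on the other arrays.

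Of the CYP313 genes Cyp313a1 was bright and varied most of all members in tim-MJD. Cyp313a1 (149899_at) read 11.84, 11.24 and 12.37 in wild type and 12.62, 9.53 and 11.29 in tim-MJD. The tim-MJD group held both the highest and the lowest array, so the groups overlapped. The means were 11.82 ± 0.57 and 11.14 ± 1.55 (SD, n = 3), and the difference of -0.67 had an interval of -2.74 to 1.39. Leaving out tim-MJD 2 turned it to 0.13, and the 2 modules gave 1.38 and -2.85. Cyp313a2 was detected on wild type 3 alone, at 5.61, and the remaining 4 genes of the family were detected on no array. Cyp313a5, Cyp313a2 and Cyp313a3 are neighbours, and Cyp313a1 is not among them.

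The rest of the detected members were close to the controls. Cyp4ac1 read 6.28, 5.99 and 5.57 in wild type and reached 6.37 at most in tim-MJD, where it was detected on all 3 arrays, with a difference of 0.23 and an interval of -0.29 to 0.75. That difference was 0.04 without wild type 3 and 0.39 without wild type 1. Its neighbour Cyp4ac2 read 5.88 to 6.13 (difference -0.15, interval -0.35 to 0.05), and Cyp4ac3, the last of this run, was detected on no array. Cyp4aa1 read 5.92 to 6.11 (difference 0.10, interval -0.06 to 0.26). Cyp311a1, described in the midgut in lipid handling, read 6.10, 5.82 and 5.75 in wild type and 5.73, 5.77 and 5.56 in tim-MJD, a difference of -0.21 with an interval of -0.50 to 0.09. In all, 7 runs of neighbouring members hold 19 of the 31 genes, and in none of these runs did every gene reach detection on all arrays.

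Among genes that work beside the clan a single one passed the test, and it was lower in tim-MJD. Of 13 listed genes of hydrocarbon and very long chain fatty acid synthesis, 12 were measured and 8 tested. Of these 1 was lower, 0 were higher and 7 did not pass in limma, and 7 of the 8 differences were negative, with a median of -0.99. The gene that passed was bond, a fatty acid elongase, which read 8.84, 9.17 and 8.42 in wild type and 7.58, 7.07 and 7.40 in tim-MJD, without overlap. It fell by 1.46 ± 0.23 (SE, adjusted p = 0.0480). Leaving out any array other than wild type 3 took the call away, with adjusted p values of 0.0784 to 0.139, and its difference was -1.59 and -1.34 within modules 1 and 2. ACC, the acetyl-CoA carboxylase that starts fatty acid synthesis, differed by -2.36 at its brighter probe set (adjusted p = 0.0957) and by -0.23 at the other. Hacd1, a dehydratase of fatty acid elongation named after its values were seen, differed by -2.22 (adjusted p = 0.0583).

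The electron donors were represented by Cyt-b5, cytochrome b5, since the reductase gene Cpr had no probe set named for it alone. Cyt-b5 read 11.06, 10.63 and 11.14 in wild type and 10.52, 10.25 and 10.20 in tim-MJD. The groups did not overlap, and the difference of -0.62 did not pass in limma (interval -1.04 to -0.20, adjusted p = 0.148). It was -0.11 and -0.89 within modules 1 and 2. Limma called 0 of 4 tested genes of heme synthesis (1 had an unadjusted p under 0.05), and Alas, which starts the pathway, differed by 0.24 (adjusted p = 0.344). Of alcohol and aldehyde oxidation 2 genes were tested, with 0 calls and 2 unadjusted p values under 0.05. These were Fdh and Aldh-III, a formaldehyde and an aldehyde dehydrogenase, named after their values were seen, which differed by 0.33 (adjusted p = 0.146) and -1.44 (adjusted p = 0.103). For regulators there were 0 calls among 5 tested genes (1 unadjusted p under 0.05), and the nuclear receptor Hr96 of xenobiotic responses differed by 0.04. The regulator with the small unadjusted p was Hnf4, a nuclear receptor of lipid metabolism named for that value, at -1.13 (adjusted p = 0.132).

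**Figure D4:**
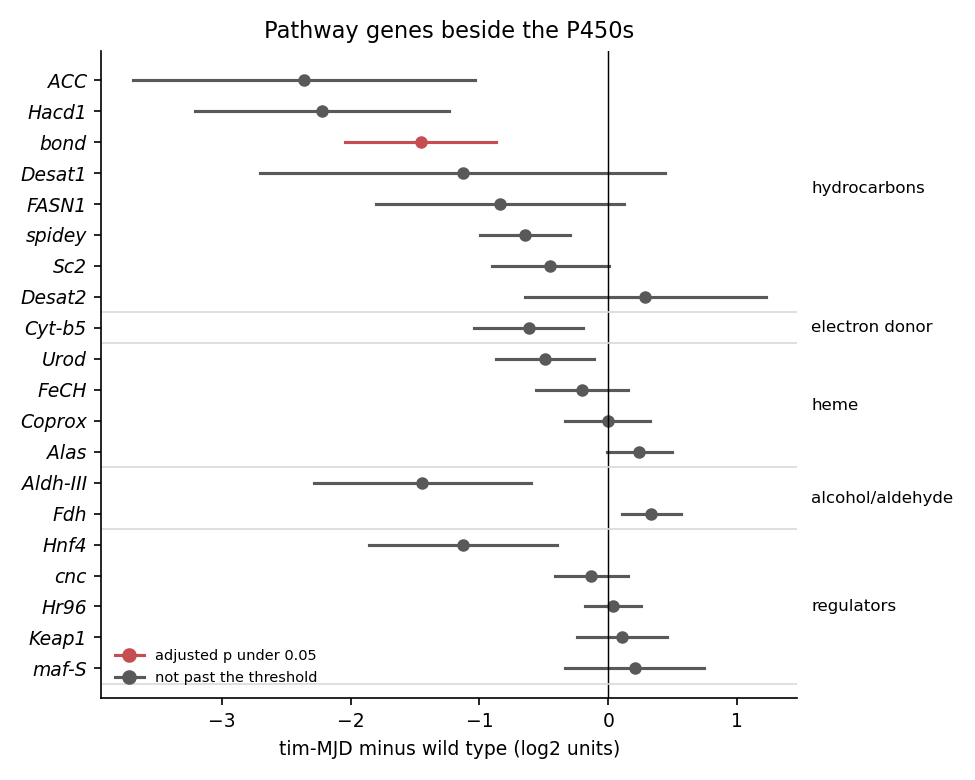
Difference between tim-MJD and wild type in log2 units (horizontal axis) for the tested genes of 5 pathway lists, each gene by its brightest probe set. Points are the differences and bars the 95% intervals of the limma fit, 3 arrays per group, in red where the adjusted p was below 0.05. All hydrocarbon synthesis genes but Desat2 lie left of 0, and only bond (-1.46) is red.

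Among members detected on all arrays, tim-MJD 2 held the lowest readings of Cyp313a1, Cyp4d20, Cyp4g15, Cyp4e2 and, by little, Cyp4d8. It also held the highest readings of Cyp4p2 and Cyp4e3, and markers of other cell types are given beside these. No gene of these lists passed in limma, and their sums of deposited intensities weigh the brightest probe sets most. Of 6 listed fat body markers 5 were measured and tested, with 0 past the threshold in limma (3 with an unadjusted p below 0.05). In tim-MJD 3 of the 5 were lower and 2 higher, with a median difference of -1.83. The summed intensity of these markers was 32528 to 129845 in wild type and 4398 to 22970 in tim-MJD, lowest on tim-MJD 2. Lsp2 made up 17.1% to 70.5% of that sum, and Fbp1 was detected on no array. The 4 female-biased fat body transcripts, with yolk proteins among them, summed to 2047867 to 5107503 in wild type. In tim-MJD they summed to 41372 on array 2 and to 2131929 and 2171832 on arrays 1 and 3. Limma called 0 of the 4, and 0 had an unadjusted p below 0.05.

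Olfactory organ markers, with Obp19d at 81.5% to 93.0% of the sum, came to 282653 to 299345 in wild type and 84154 to 169391 in tim-MJD, again lowest on tim-MJD 2, and 6 of 6 tested were lower, with 0 past the threshold in limma (4 with an unadjusted p below 0.05). Digestive tract markers summed to 194 on wild type 3 and 6159 and 7565 on the other wild type arrays, and to 4165, 26942 and 4261 in tim-MJD, with Mal-A2 not detected. Amy-d, an amylase, was 46.9% to 99.6% of these sums. Of 5 tested 4 were negative, with a median difference of -1.48, while 0 passed and 0 had an unadjusted p under 0.05. Hemocyte markers summed to 463 to 593 in wild type and 409 to 599 in tim-MJD, and 0 of 6 passed (2 with an unadjusted p below 0.05). The part of these cell types in the differences of clan members was not tested. Without tim-MJD 2, the differences of Cyp4p2 and Cyp4d20 were 2.37 (adjusted p = 0.00883) and -1.44 (adjusted p = 0.288).

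**Figure D5:**
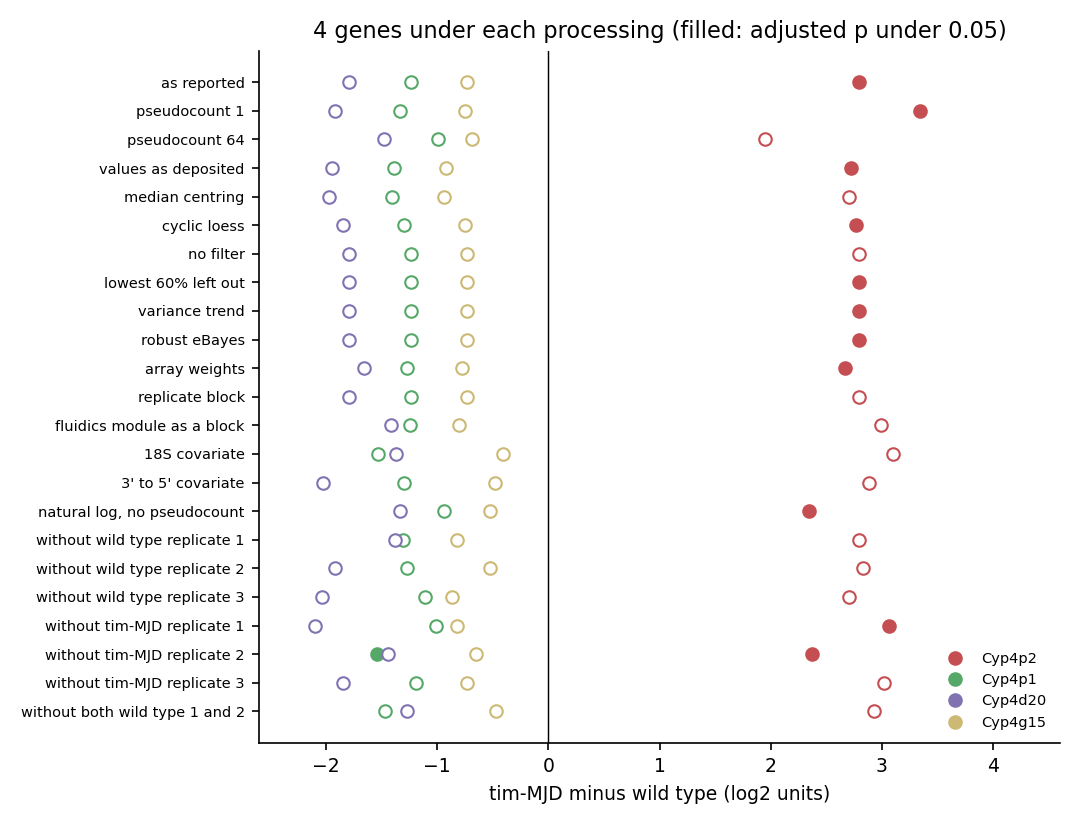
Difference between tim-MJD and wild type in log2 units (horizontal axis) of Cyp4p2, Cyp4p1, Cyp4d20 and Cyp4g15 with the processing as reported and under 22 alternatives (rows). Filled points have a limma adjusted p below 0.05 under that setting, and open points do not; the natural log setting is in natural log units. Cyp4p2 stays between 1.95 and 3.34 and the other 3 genes stay below 0 throughout, while filled points are found only for Cyp4p2 and, without tim-MJD 2, for Cyp4p1.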

How the data were processed

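The deposited values are one intensity per probe set and array, per the file headers of an Affymetrix DrosGenome1 array. The sources used here do not give the summary method, background correction or scaling. The highest value of an array was 2.14e+06 to 2.89e+06, beyond plain scan intensities, so the log base behind the values is unsettled. Read as natural powers of log2 summaries, the Cyp4p2 difference would be 2.34 in place of 2.79.

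Of 14010 probe sets, 44 controls were left out. Of the others, 12443 had 1 gene symbol in the supplied platform annotation, 327 several and 1196 none listed; all 31 member genes matched the RefSeq table by gene ID. Log2 of intensity plus 16 was quantile normalized, the lowest 40% of means over all 6 arrays were removed, and groups were compared with limma 3.58.1 in R 4.3.3 (lmFit, eBayes without trend, two-sided, Benjamini-Hochberg adjustment over all probe sets tested). The procedure was tested on simulated data. Listed genes are represented by the probe set with the highest mean; 19 of 90 listed genes had no probe set of their own. All members are named, together with all called genes and, where it had a probe set of its own, the first gene of each pathway list; the text marks others as named after their values were seen. Members and lists were chosen with earlier results of these data known. The number of arrays limits the precision. Alternatives covered pseudocount, normalization, filter, variance model, array weights, replicate and fluidics module blocks, 2 covariates and leaving out arrays. Sequences were not used here. Figures were drawn with matplotlib 3.10.9.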

Additional observations from a re-analysis of the deposited data

How the results depend on the processing

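Against 1 member called higher, 0 were called with a pseudocount of 64, median centring, no filter, the replicate block, the fluidics module as a block, the 18S covariate, the 3' to 5' covariate and without both wild type 1 and 2 (an alternative chosen after seeing the data, as was the natural log). With 1 array left out, 0 to 1 were called higher and 0 to 1 lower. The median difference of tested members was -0.187 with 60% left out, where 14 members were tested. Against 1 pathway gene called, 2 were called with a pseudocount of 1, the values as deposited, 60% left out, the variance trend and the natural log, 1 (Hacd1 in place of bond) with median centring, 0 with a pseudocount of 64, cyclic loess, no filter, robust eBayes, both blocks, both covariates and without both wild type 1 and 2, and 0 to 2 with 1 array left out. Over all probe sets, against 208 called, there were 84 with the replicate block, 0 with the module block, 37 with the 18S and 93 with the 3' to 5' covariate, 122 with median centring, 102 with no filter, 387 with 60% left out, 4 without both wild type 1 and 2 and 88 to 200 with 1 array left out. The module block rested on the arrays of modules 1 and 2, as wild type 1 and tim-MJD 3 were each alone in their module. Same-numbered arrays correlated in their deviations from group means at 0.286, 0.0498 and 0.300, and arrays of different number at -0.314 to 0.112. Wild type 2 correlated best with tim-MJD 1 (0.112), and every other array with its own number. The numbers were not taken as pairs in the main fit, and these values do not settle whether they are. With the numbers as blocks, the Cyp4p2 difference was 2.79 (limma adjusted p = 0.0742).

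Signs turned for members that did not pass. Cyp313a2 was -0.00449 with array weights, -0.0452 with the module block, -0.0218 with the 18S covariate and -0.0167 without both wild type 1 and 2, and -0.021 to 0.0244 with 1 array left out. Cyp4ac2 was 0.0139 and Cyp4d2 0.0148 with the 18S covariate, and Cyp4d2 was 0.00241 without both wild type 1 and 2. With 1 array left out, Cyp313a1 was -1.40 to 0.133, Cyp4e1 -0.0371 to 0.409 and Cyp4e3 -0.0073 to 0.910. Among tested members detected on at least 1 array, together with bond, the other 12 differences kept their direction. The 6 tested members detected on no array were not followed in this way. For the dim members, signal over background limits what can be seen. No cause of a lost call was tested.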
